A study of Mus musculus with 111 samples.

Results

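The genes described here are the 7 subunits of respiratory complex I that the mouse mitochondrial genome encodes: mt-Nd1, mt-Nd2, mt-Nd3, mt-Nd4, mt-Nd4l, mt-Nd5 and mt-Nd6. They were taken by symbol, as the complete set of mt-Nd genes, from 36134 genes in the table, and all 7 passed the filter on low counts. Polyadenylated RNA was measured in single mouse 2-cell embryos of strain B6129F1, 56 control and 55 knockdown, from 3 experiments. The control embryos numbered 24, 7 and 25 in experiments 1, 2 and 3, and the knockdown embryos 16, 16 and 23. Knockdown embryos came from oocytes at the germinal vesicle stage that received a pair of siRNAs against Nr5a2, which encodes an orphan nuclear receptor of the early embryo, at 20 µM each, with H2B-rsEGFP at 150 ng/µl as the injection marker. By the labels' protocols, control embryos came from oocytes that received the control injection with H2B-EGFP at 150 ng/µl. All oocytes were held in dbcAMP for 5 h, matured for 12 h and fertilized in vitro, and the embryos were cultured in KSOM. The arms thus differ in the marker as well as in the siRNAs, and their effects cannot be told apart. Each sample is 1 embryo, its mother is not named, and p-values measure the spread between embryos, some of which may share a mother.

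Complex I takes electrons from NADH, passes them to ubiquinone and pumps protons across the inner mitochondrial membrane. Its mitochondrially encoded subunits form the core of the membrane arm. mt-Nd2, mt-Nd4 and mt-Nd5 are the antiporter-like subunits of the proton channels, mt-Nd1 lies next to the ubiquinone binding site, and mt-Nd3, mt-Nd4l and mt-Nd6 lie between mt-Nd1 and the antiporter-like subunits. The mitochondrial genome is transcribed as long precursors from both strands. The mRNAs are cut from these precursors, mostly at flanking tRNAs, and most are polyadenylated. Oocytes hold a large stock of mitochondria and of their RNA, which the embryo inherits.

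The ends of the 7 coding transcripts are shown first, since the libraries were primed with oligo dT, which anneals to poly(A) tails. The last 25 bases of each annotated transcript, 5′ to 3′, with the encoded part of the stop codon in capitals (GENCODE M21, GRCm38), are:
mt-Nd1: agcgggagtaccaccatacataTAG
mt-Nd2: cctagccccccaactaattaccTAG
mt-Nd3: aaaaggattagaatgaacagagTAA
mt-Nd4: aaactaattacaggcctgacaataT
mt-Nd4l: aaatctcaacctactacaatgcTAA
mt-Nd5: cttatactcaattaatctcgagTAA
mt-Nd6: tattatcgagattactcgagatTAA
mt-Nd4 ends in a single T of its stop codon, which polyadenylation completes in the mRNA. The last 2 annotated bases of mt-Nd1 and of mt-Nd2 also belong to the next tRNA gene. On the plus strand of chrM the genes span bases 2751 to 3707 (mt-Nd1), bases 3914 to 4951 (mt-Nd2), bases 9459 to 9806 (mt-Nd3), bases 10167 to 11544 (mt-Nd4), bases 9877 to 10173 (mt-Nd4l) and bases 11742 to 13565 (mt-Nd5), and on the minus strand mt-Nd6 spans bases 13552 to 14070. The gene models hold coding sequence only, in 1 exon each, between 297 bases for mt-Nd4l and 1824 bases for mt-Nd5, so the levels per kilobase below are per coding length. A run of 8 adenines lies within mt-Nd2, the longest among the 7 genes, within bases 129 to 156 of the transcript, while the longest in mt-Nd6 has 3. Those bases of mt-Nd2 are shown, with the run in capitals, because oligo dT can also anneal within a transcript:
mt-Nd2: actaatcaacAAAAAAAAcccacgatca

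2 pairs of these genes overlap, which bears on how reads were assigned. mt-Nd4l and mt-Nd4 lie on the same strand and stay on 1 mRNA with 2 reading frames. They share 7 bases, at chrM:10167-10173. mt-Nd6 is read from the opposite strand to the other 6, and the last 14 bases of mt-Nd5, chrM:13552-13565, are the complement of the last bases of mt-Nd6. Both windows are printed on the plus strand with the overlap in capitals, from base 10155 to 10185 and from base 13544 to 13573:
mt-Nd4l and mt-Nd4: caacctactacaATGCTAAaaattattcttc
mt-Nd5 and mt-Nd6: atactcaaTTAATCTCGAGTAAtctcgata
The overlaps make up at most 2.70% of a member's length. The library method does not record the strand, so reads from mt-Nd6 and from antisense RNA of the same stretch cannot be told apart. mt-Nd6 has mt-Nd5 and no tRNA gene next to its 3′ end, and whether its RNA carries a poly(A) tail was not measured.

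Nuclear copies of mitochondrial DNA could also take up reads of the members. Of the 31-base words of the transcripts, 98.9% of those of mt-Nd4l, 98.1% of those of mt-Nd3 and 62.8% of those of mt-Nd4 also occur in the transcript of an annotated nuclear gene. For mt-Nd5, mt-Nd2 and mt-Nd6 the share was 16.8%, 13.5% and 7.36%, and mt-Nd1 shared 0 words. The counts given to these nuclear copies were small: none of the 8 had a median over 1.00 count, and none reached more than 0.649% of the member's count in any embryo. Copies of some other mt- coding genes took more. All words of mt-Co2 are shared, and its copy Gm28661 had a median of 32.5% and at most 545% of the mt-Co2 count. Gm10925, a copy of mt-Atp6, had a median of 315% of the mt-Atp6 count. The part of this division of reads in the values of mt-Co2 and mt-Atp6 below was not tested.

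The libraries held between 1.96 M and 21.2 M estimated counts, and the members were deeply covered: the lowest count of any member in any embryo was 447, for mt-Nd6, and the highest 157466, for mt-Nd1. The 13 protein-coding mt- transcripts held 4.23% to 14.3% of an embryo's unscaled counts. The targeted gene Nr5a2 fell in knockdown embryos, at -1.16 (SE 0.12, adjusted p = 4.8e-12) on the log2 scale by edgeR's quasi-likelihood test, and 53 of 55 knockdown embryos lay below the control median of their experiment. The stage markers Zp3, Gdf9, Oosp1, Dppa3, Zscan4c, Zscan4d, Zfp352 and Tdpoz4 were all detected, with a summed level of 1362 to 5465 counts per 1e6 of the library size after TMM scaling (CPM), the scale of all levels below. Of 9 cumulus cell markers, Has2, Ptx3, Amh, Inhba, Vcan and Fshr had a median of 0. Tnfaip6, Cyp19a1 and Ptgs2 had medians of 4.84, 2.03 and 1.02 CPM, and the summed level of the 9 was at most 70.4 CPM. The 4 sperm markers summed to at most 7.40 CPM.

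Within the embryos the 7 transcripts differed about 10-fold in level per kilobase of coding length. mt-Nd1 was the most abundant, with a median of 8949.8 CPM per kb over all embryos. It was followed by mt-Nd4l at 6206 and mt-Nd4 at 5639 CPM per kb, then mt-Nd2 at 2817 and mt-Nd5 at 2602. mt-Nd3 had 1825 CPM per kb and mt-Nd6 the least, 870.4. In this order mt-Nd4l and mt-Nd4, which share an mRNA, did not differ beyond their spread: over all embryos the log2 ratio of their levels per kilobase was 0.16 ± 0.21 (mean ± SD). Over all embryos the same held for mt-Nd2 and mt-Nd5, at 0.13 ± 0.29 (mean ± SD), and their order was reversed in experiment 2. Within single experiments, however, both pairs went beyond 1 SD once: in experiment 2 mt-Nd4l lay above mt-Nd4 in 23 of 23 embryos (0.35 ± 0.19), and in experiment 3 mt-Nd2 lay above mt-Nd5 in 44 of 48 (0.24 ± 0.19). Over all embryos each of the other neighbours differed by more than 1 SD, and mt-Nd3 lay above mt-Nd6 in 110 embryos and below it in 1. Recovery of a transcript by oligo dT priming can differ between genes, so the order is one of recovered RNA.

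The comparison of arms asks whether the 7 transcripts differed after Nr5a2 knockdown. Among the antiporter-like subunits mt-Nd2 and mt-Nd5 rose, and among the subunits nearer to the ubiquinone site mt-Nd3 and mt-Nd4l rose. mt-Nd1, mt-Nd4 and mt-Nd6 did not pass the test. Thus 4 of 7 members were called higher and 0 lower at an adjusted p under 0.05, where the same rule called 1.12% of the 13448 genes tested, 0.654% as higher. Of all 151 calls, 88 were higher in knockdown embryos, and 60 of 130 were with library totals only as the scaling. All 7 log2 fold changes were positive, from 0.17 to 0.44 with a median of 0.32, against a median of 0.023 over all genes, and 6 of the 7 had an unadjusted p under 0.05. Among the other 6 mt- coding genes, mt-Co2 and mt-Atp8 were called, also higher, and the median of the 6 was 0.23. CPM is relative to the rest of the library, so these values do not show that an embryo held more mitochondrial RNA. More copies of the mitochondrial genome in an embryo, more RNA per copy and less RNA of other genes cannot be told apart in these data.

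mt-Nd2 had the smallest adjusted p of the 7. In controls of experiment 1 its lowest, median and highest level was 1949.8, 3402 and 7057 CPM, and in knockdown embryos 2193, 4397 and 7139 CPM. Experiment 3 gave 1771, 2431 and 4026 CPM in controls and 2392, 3777 and 10319 CPM in knockdown embryos. The arms overlapped in both, but 14 of 16 and 20 of 23 knockdown embryos lay above the control median. Experiment 2 had lower levels, 1096, 1372 and 1971 CPM in controls and 1233, 1600.5 and 3115 CPM in knockdown embryos, also with overlap. Over all experiments the log2 fold change of mt-Nd2 was 0.44 (SE 0.086, adjusted p = 8.0e-04) by edgeR's quasi-likelihood test, with 47 of 55 knockdown embryos above the control median of their experiment.

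mt-Nd5, the distal antiporter-like subunit and the longest of the 7 genes, had a lowest, median and highest level of 4018, 5501 and 11033 CPM in controls and 3234, 6793 and 11444 CPM in knockdown embryos of experiment 1. In experiment 2 it had 2175, 3107 and 4159 CPM and 1999, 3630.2 and 4855 CPM in the same order. In experiment 3 it had 2549, 3785 and 5463 CPM and 3373, 4915 and 14165 CPM. The knockdown median was the higher in each experiment, and the arms overlapped in each. mt-Nd5 rose, at 0.32 (SE 0.086, adjusted p = 0.0348) on the log2 scale by edgeR, with 40 of 55 knockdown embryos above the control median. Its call was lost with library totals only as the scaling (adjusted p = 0.0557), with limma-voom (0.0566), with the authors' batch-adjusted values (0.107), without experiment 1 (0.0599), without experiment 3 (0.804) and without 1 knockdown embryo described below (0.0709). It was called in 7 of 15 alternative settings. mt-Nd4, the remaining antiporter-like subunit, was at 0.23 (SE 0.072, adjusted p = 0.122) on the log2 scale and did not pass. Its levels in control and knockdown embryos were 5829.8 to 18071 and 5105 to 15079 CPM in experiment 1, 4348 to 6691 and 3889 to 8232 CPM in experiment 2, and 5232 to 10507 and 6013 to 17317 CPM in experiment 3. These ranges overlapped in every experiment.

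mt-Nd3, a small subunit with a loop close to the ubiquinone site, rose by about as much as mt-Nd2. Its lowest, median and highest level in experiment 1 was 319.7, 650.2 and 1782 CPM in controls and 350.1, 1009 and 1783 CPM in knockdown embryos. In experiment 3 it was 343, 549 and 941 CPM and 483, 773 and 2078 CPM. Knockdown embryos lay above the control median in 14 of 16 and 22 of 23 cases, with overlap in both experiments. In experiment 2 its levels were 299.9, 316 and 567 CPM in controls and 192, 377 and 835 CPM in knockdown embryos, and the knockdown range enclosed that of the controls. The log2 fold change of mt-Nd3 over all experiments was 0.44 (SE 0.10, adjusted p = 0.00367) by edgeR, with 50 of 55 knockdown embryos above the control median. In experiment 2 alone it was 0.090 (SE 0.22), although 14 of 16 knockdown embryos lay above the control median there. The call of mt-Nd3 was lost without experiment 1 (0.41, adjusted p = 0.0838) and without experiment 3.

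mt-Nd4l, the smallest member, had a lowest, median and highest level of 1265, 2146 and 4337 CPM in controls and 1218, 2485 and 3952 CPM in knockdown embryos of experiment 1. In experiment 2 the values were 962, 1464 and 1738 CPM and 1039.8, 1569.5 and 2928 CPM, and in experiment 3 971, 1385 and 2481 CPM and 1235, 2155 and 3708 CPM. The arms overlapped in each experiment, and 22 of 23 knockdown embryos of experiment 3 lay above the control median. Over all experiments mt-Nd4l rose, at 0.32 (SE 0.084, adjusted p = 0.0257) on the log2 scale by edgeR. Without experiment 3 its call was lost (0.19, adjusted p = 0.729). mt-Nd4, which shares its mRNA, was not called, and the difference between their fold changes was not tested.

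mt-Nd1, which borders the ubiquinone site, had a lowest, median and highest level of 5743, 8364 and 18356 CPM in controls and 5316, 9350.2 and 19424 CPM in knockdown embryos of experiment 1. In experiment 3 the values were 5341, 7768 and 11454 CPM and 7186, 10754 and 31839.6 CPM. The arms covered nearly the same range in experiment 1, whereas in experiment 3 10 of 23 knockdown embryos lay above the highest control. In experiment 2 mt-Nd1 ran from 5513 to 9889 CPM in controls and from 5138 to 14026 CPM in knockdown embryos. Its log2 fold change over all experiments was 0.31 (SE 0.093, adjusted p = 0.0807) by edgeR and did not pass.

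mt-Nd6, the member on the opposite strand, had the smallest fold change, 0.17 (SE 0.092, adjusted p = 0.581), and 28 of 55 knockdown embryos above the control median. Its lowest, median and highest level in experiment 1 was 385, 595 and 1402 CPM in controls and 293, 860.5 and 1234 CPM in knockdown embryos. For experiment 2 the values were 179, 266 and 299 CPM and 132, 226 and 312 CPM. For experiment 3 they were 286, 441 and 721 CPM and 319, 447 and 1611 CPM. The knockdown median was above the control median in experiment 1, below it in experiment 2 and close to it in experiment 3, and the arms overlapped in each. Its log2 fold changes by experiment were 0.26 (SE 0.15), -0.18 (SE 0.21) and 0.25 (SE 0.14).

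**Figure D1:**
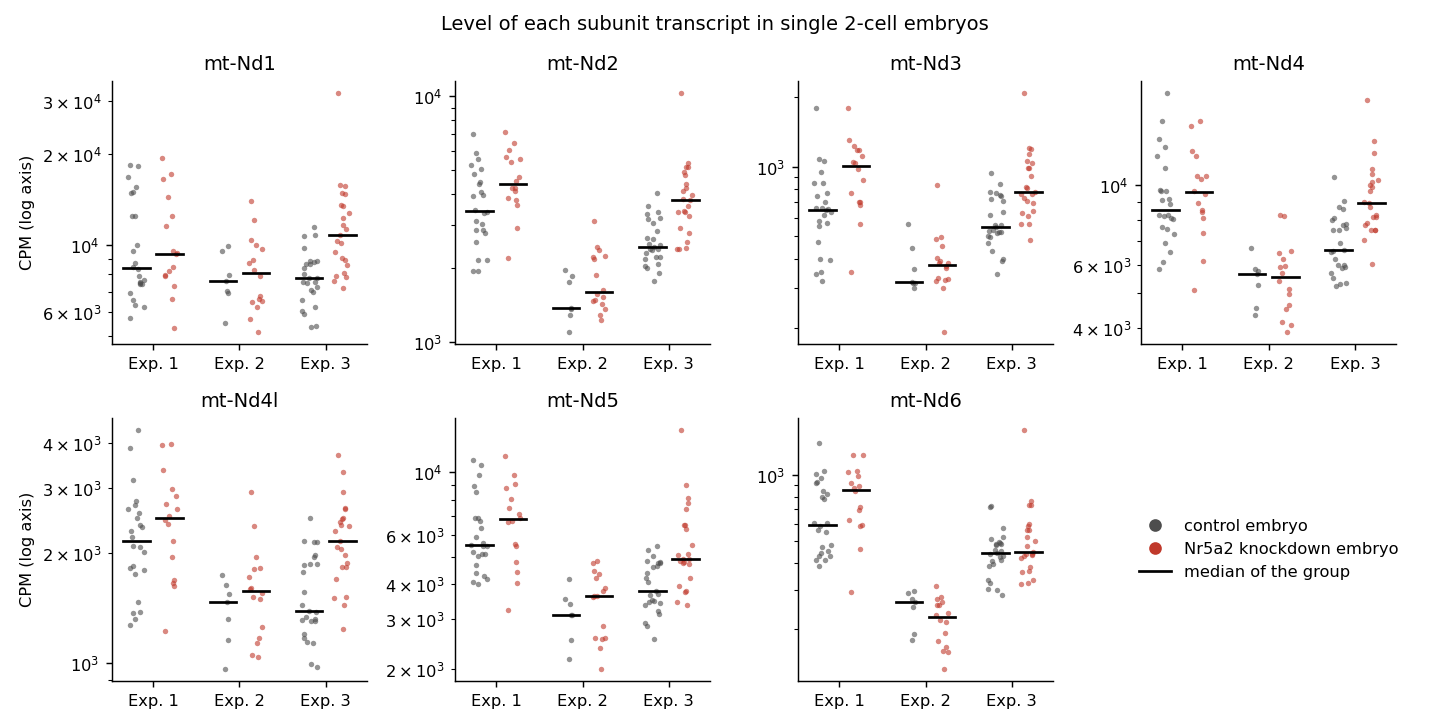
CPM of each of the 7 transcripts on a log axis, with 1 point per embryo and a bar at the median of each group of experiment (Exp.) and arm. In both arms the medians of all transcripts except mt-Nd4l were lowest in experiment 2. For mt-Nd4l this held in knockdown embryos only. Knockdown medians lay above control medians in experiments 1 and 3 for all 7 transcripts, with overlapping points.

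The response was next compared between experiments. In experiment 3 alone, 3 of 7 members passed, where 0.126% of all genes did: mt-Nd2 at 0.62 (SE 0.13, adjusted p = 0.00495), mt-Nd1 at 0.59 (SE 0.13, adjusted p = 0.0304) and mt-Nd5 at 0.53 (SE 0.13, adjusted p = 0.0389), and the median of the 7 was 0.53. In experiment 1 none of the 7 passed, where 0.959% of all genes did, and by edgeR 2 members had an unadjusted p under 0.05. Likewise in experiment 2, with 7 control embryos, none passed and edgeR gave 0 members an unadjusted p under 0.05, where 0% of all genes were called. The medians of the 7 there were 0.16 and 0.10. The test of the difference between experiments called 0 of the 7 and 0.0149% of all genes. By edgeR, 2 members, mt-Nd1 and mt-Nd4, had an unadjusted p under 0.05 in this test (adjusted p = 0.826 and 0.852), and limma-voom also called 0. Without experiment 3 the combined comparison called 0 of the 7, with log2 fold changes of 0.31 for mt-Nd2 (adjusted p = 0.368) and 0.36 for mt-Nd3 (0.368). Without experiment 1 it called mt-Nd1 (0.43, adjusted p = 0.0393), mt-Nd2 and mt-Nd4l.

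1 knockdown embryo of experiment 3, embryo 5, had the highest level of its group for 7 of the 7 transcripts. Without it, mt-Nd2 had a log2 fold change of 0.40 (edgeR adjusted p = 0.00188) and mt-Nd3 one of 0.40 (0.00797). mt-Nd4l had 0.30 (0.0421) and mt-Nd5 0.27 (0.0709). mt-Nd5 no longer passed, which left 3 of 7 called. Counts on the 2 reporter rows of the table also differed between experiments and arms. Per 1e6 unscaled counts, the first row had medians of 902 and 119 in control embryos of experiments 2 and 3, but at most 2.19 in those of experiment 1. In knockdown embryos its medians were 21.3, 34.8 and 3.63 in experiments 1, 2 and 3. The second row had medians of 142, 319.9 and 25.6 in knockdown embryos, and at most 1.93 in controls. Why control embryos of experiment 1 had almost no counts on either row, although the protocols name a marker for controls, was not tested. The part of the marker in the result was not tested either. In the authors' deposited table over all embryos, from DESeq2, the 7 log2 fold changes were positive as well, and mt-Nd2 (0.43, adjusted p = 0.00128) and mt-Nd3 (0.43, adjusted p = 0.00700) were the 2 members under 0.05.

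**Figure D2:**
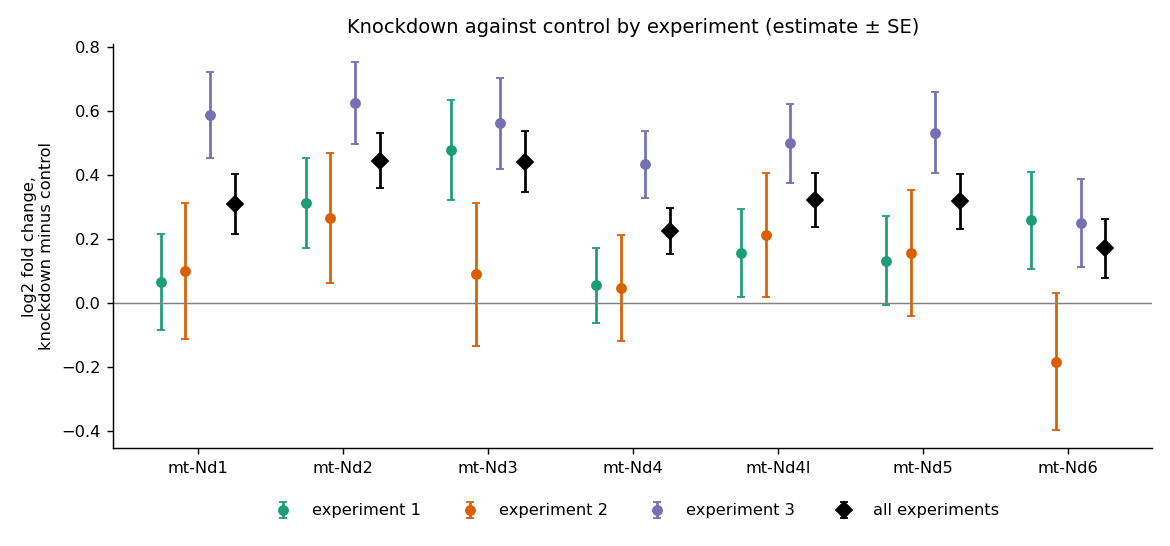
Log2 fold change of knockdown over control embryos for each transcript, as edgeR estimate ± SE, in each experiment and over all 3 (diamonds). The estimates of experiment 3 run from 0.25 to 0.62, and the only negative estimate is that of mt-Nd6 in experiment 2, -0.18.

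The largest log2 fold changes of the members lay between experiments, not between arms. Among control embryos, 6 of 7 members were lower in experiment 2 than in experiment 1, where 4.92% of all genes were called in either direction. On the log2 scale mt-Nd6 differed most among the members, at -1.45 (SE 0.23, adjusted p = 1.2e-06), followed by mt-Nd2 at -1.30 (SE 0.21, adjusted p = 2.2e-06). mt-Nd5, mt-Nd3, mt-Nd4 and mt-Nd4l were called too, with -0.99, -0.89, -0.80 and -0.68. mt-Nd1, the most abundant transcript, had -0.40 (SE 0.21, adjusted p = 0.318) and did not pass. The other 6 mt- coding genes differed too: 4 of 6 were called lower, with a median of -1.01 against -0.89 for the members. mt-Atp8 (-1.98) and mt-Co2 (-1.93) had larger differences than any member, though the value of mt-Co2 also depends on how reads were divided with its nuclear copy. Control embryos of experiment 3 were lower than those of experiment 1 in 5 of 7 members, where 9.32% of genes were called, with log2 fold changes of -0.64, -0.59, -0.53, -0.52 and -0.44 for mt-Nd5, mt-Nd6, mt-Nd2, mt-Nd4l and mt-Nd4. mt-Nd1 (-0.37) and mt-Nd3 (-0.23) did not pass, though mt-Nd1 did with library totals only as the scaling (-0.37, adjusted p = 0.0322). Between experiments 3 and 2, mt-Nd6 (0.85) and mt-Nd2 (0.77) were higher in experiment 3, 2 of 7 where 1.6% of genes were called. The 3 comparisons share their control groups.

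Knockdown embryos, which are other embryos of the same experiments, were compared in the same way. In this arm 6 of 7 members were lower in experiment 2, where 14.2% of genes were called. The log2 fold change was -1.89 for mt-Nd6, -1.34 for mt-Nd2 and -1.28 for mt-Nd3, and again mt-Nd1 did not pass, at -0.36 (SE 0.16, adjusted p = 0.127). Of the other 6 mt- coding genes 3 were called lower, and mt-Atp8 again had the largest difference, -2.08. Between experiments 3 and 1 only mt-Nd6 among the members was called in knockdown embryos, at -0.60 (SE 0.15, adjusted p = 0.0140), against 2.16% of genes. Between experiments 3 and 2 all 7 were higher in experiment 3, with 15.1% of genes called and a median of 0.75. The libraries of experiment 2 were also the shallowest, with median totals of 3.84 and 3.66 M in control and knockdown embryos against 4.73 and 4.22 M in experiment 1 and 5.37 and 5.23 M in experiment 3. The summed level of the 9 cumulus markers had medians of 17.9, 8.59 and 9.78 CPM in experiments 1, 2 and 3, highest in experiment 1 as for most members. It ran from 0.364 to 70.4 CPM in experiment 1, from 0.892 to 37.6 in experiment 2 and from 2.01 to 32.2 in experiment 3. The part of depth and of other cells in these differences was not tested.

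**Figure D3:**
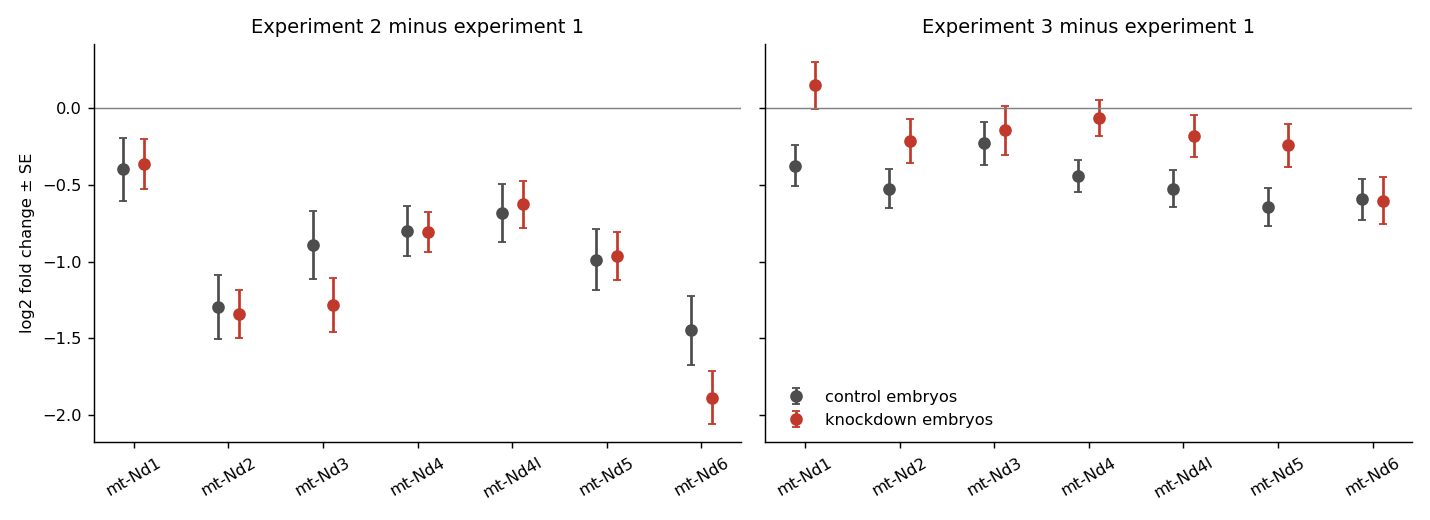
Log2 fold change ± SE between experiments for each transcript, separately in control and knockdown embryos. In the left panel both arms show the lowest values for mt-Nd6 (-1.45 and -1.89) and the highest for mt-Nd1 (-0.40 and -0.36).

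A level in CPM moves when all mitochondrial RNA moves together, so each transcript was also expressed as a percentage of the counts on the 13 mt- transcripts of its embryo. Summed, the 7 members made up 31.1% to 50.3% with a median of 37.1%. The summed share was 1.75 percentage points higher in knockdown embryos within experiments, with 2.52, -0.0939 and 1.89 points in experiments 1, 2 and 3. Gene by gene, 3 of 7 shares rose in a two-sided permutation test within experiments, adjusted over the 13 mt- transcripts, of which 6 were called. The other 3 were mt-Co2 and mt-Atp8, whose shares rose, and mt-Cytb, whose share fell by 1.53 points (adjusted p = 9.4e-04). Shares of 1 total are not independent. The 12 nuclear genes that share at least 100 words with an mt- transcript held 8.07% to 16.9% of the counts of both kinds together, and adding those counts to the matching mt- transcripts called the same 3 members, in a comparison chosen after seeing the data.

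The share of mt-Nd2 rose by 0.621 points (permutation test, adjusted p = 2.2e-04) and was above the control median of the experiment in 46 of 55 knockdown embryos. Its lowest, median and highest share was 2.83, 4.64 and 6.52% in control and 4.10, 5.22 and 7.53% in knockdown embryos of experiment 1. In experiment 3 the values were 3.10, 3.79 and 4.61% and 3.47, 4.10 and 5.86%. Both pairs of groups overlapped. The share of mt-Nd3 rose by 0.140 points (permutation test, adjusted p = 2.2e-04), with 0.296, -0.0137 and 0.0783 points in experiments 1, 2 and 3. It was above the control median of the experiment in only 31 of 55 knockdown embryos. Without experiment 1 the difference was 0.0517 points (adjusted p = 0.166). The share of mt-Nd4l rose by 0.172 points (permutation test, adjusted p = 0.0189), also lost without experiment 1 (0.143 points, adjusted p = 0.128). The shares of mt-Nd5 and mt-Nd1 were 0.319 and 0.491 points higher and did not pass (permutation test, adjusted p = 0.0769 and 0.157), and that of mt-Nd4 differed by 0.0195 points (0.914). Control embryo 2 of experiment 2 had an mt-Nd1 share of 19.6%, where the next in its group had 13.6%. Without it the share of mt-Nd1 was 0.671 points higher in knockdown embryos and passed (permutation test, adjusted p = 0.0348).

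The share of mt-Nd6 did not pass. Its difference over all 3 was -0.00938 points (permutation test, adjusted p = 0.891), and 39 of 55 knockdown embryos lay below the control median of their experiment. By experiment it was 0.141, -0.0774 and -0.102 points in experiments 1, 2 and 3, and the difference between experiments was not tested. Without experiment 1, chosen as an alternative for all members, the share of mt-Nd6 fell by 0.0951 points (permutation test, adjusted p = 8.8e-04). In experiment 2 the shares ran from 0.377% to 0.490% in controls and from 0.294% to 0.451% in knockdown embryos. In experiment 3 they ran from 0.521% to 1.07% and from 0.414% to 0.914%. In all 23 embryos of experiment 2, of both arms, the share of mt-Nd6 lay below the lowest of the 40 embryos of experiment 1 (0.495%), and in 16 of 23 below the lowest of experiment 3. The shares of mt-Co2 and mt-Atp8 lay below the lowest of experiment 1 and of experiment 3 in 23 of 23 embryos. Against experiment 1, 9 of 23 embryos did so for mt-Nd2, and for mt-Nd1 0, with a median share of 13.5% in experiment 2 and 12.4% in experiment 1.

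**Figure D4:**
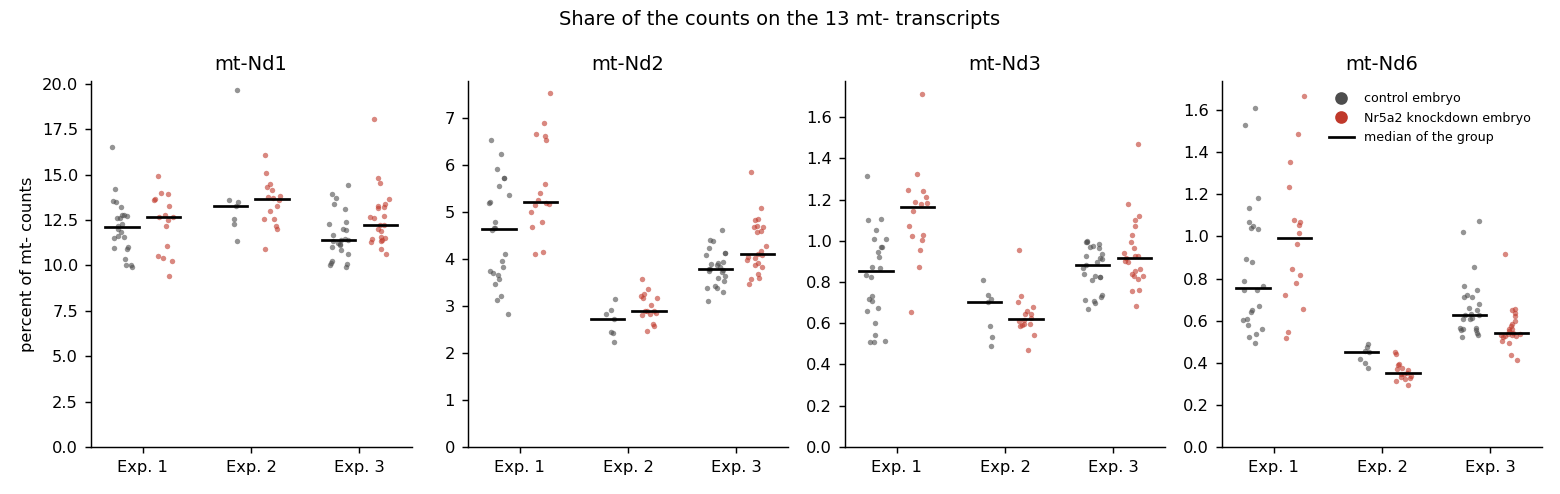
Percent of the counts on the 13 mt- transcripts that fell on mt-Nd1, mt-Nd2, mt-Nd3 and mt-Nd6, with 1 point per embryo and a bar at the median of each group. The share of mt-Nd6 was below 0.495% in all 23 embryos of experiment 2, and in experiments 2 and 3 its knockdown medians (0.350% and 0.540%) lay under the control medians (0.451% and 0.629%).

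The overlapping pairs gave 2 ratios that do not depend on the scaling of the libraries. For the convergent pair, the level per kilobase of mt-Nd6 over that of mt-Nd5 had medians of 0.362, 0.289 and 0.384 in control embryos of experiments 1, 2 and 3. In knockdown embryos the medians were 0.414, 0.216 and 0.320. In experiment 2 the ratio ran from 0.232 to 0.338 in controls and from 0.201 to 0.263 in knockdown embryos, which overlapped in part. For mt-Nd4l over mt-Nd4, encoded on 1 mRNA, the ratio had a median of 1.10 over all embryos and ran from 0.817 to 1.65. Its medians in knockdown embryos were 1.18, 1.30 and 1.07, each above the control median of the experiment (1.06, 1.21 and 1.01). These ratios were looked at after the shares were seen and were not tested.

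Embryos also differ in their level of Nr5a2 RNA, which allows a look within each arm. This is another question than the comparison of arms, since the level may vary with other differences between embryos. Among the 55 knockdown embryos, 0 of the 7 members had a slope on the log2 level of Nr5a2 that passed edgeR's test, and 0 had an unadjusted p under 0.05, while 18.5% of all genes passed. The slopes ran from -0.12 for mt-Nd6 (SE 0.11) to 0.015 for mt-Nd4l (SE 0.10) per doubling of Nr5a2. That of mt-Nd2 was -0.10 (SE 0.11). Among the 56 control embryos 0 of 7 passed and 0 had an unadjusted p under 0.05, against 11.4% of genes, with all 7 slopes negative and the steepest that of mt-Nd1, -0.15 (SE 0.093, adjusted p = 0.294). A missed threshold does not show that the slopes are 0. The SEs of 0.089 to 0.11 in knockdown embryos give the precision.

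Across embryos the 7 transcripts varied together. After the mean of each of the 6 groups was subtracted, Pearson's r of log2 CPM between members over the 56 control and 55 knockdown embryos ran from 0.593 for mt-Nd4l with mt-Nd6 to 0.910 for mt-Nd4 with mt-Nd4l, with a median of 0.824 over 21 pairs. With the other 6 mt- coding transcripts the median r was 0.760. mt-Nd6 had the lowest median r with the other members, 0.716. These are descriptions, since all transcripts of an embryo share its library and scaling. With the 36 nuclear-encoded complex I subunits that passed the filter, median r ran only from 0.0126 to 0.104 for the 7 members. Outside the mitochondrial genome the gene most like each member was Gm10925 for 6 of the 7, with r from 0.785 to 0.864, and Gm29216 for mt-Nd6 (0.608), among 7624 genes with an average log2 CPM of at least 4. Both share 31-base words with mitochondrial genes: Gm10925 holds 99.5% of those of mt-Atp6 and Gm29216 holds 29.6% of those of mt-Co1, so reads of the 2 origins are not separable there. The other genes among the 3 most like a member were Gm28661, which holds 99.5% of the words of mt-Co2, Nudt14 (r up to 0.643, with mt-Nd5), AW822252 (0.570, with mt-Nd3), Gm20594 (0.579, with mt-Nd5) and Dock10 (0.495, with mt-Nd4). Shared words were looked for with the coding mt- transcripts only, so copies of the mitochondrial ribosomal RNAs among these genes would not be found.

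Complex I is completed by subunits from nuclear genes, which are transcribed and translated apart from the 7. Of 37 nuclear-encoded structural subunits, 36 passed the filter, and 0 were called between knockdown and control embryos by edgeR, by DESeq2 or by limma-voom, with 2 at an unadjusted p under 0.05 by edgeR. Their log2 fold changes were positive in 29 and negative in 7, with a median of 0.10. The smallest p was that of Ndufb2, an accessory subunit of the membrane arm, at 0.24 (SE 0.11, edgeR adjusted p = 0.417). Of 17 tested complex I assembly factors 0 were called, with 0 at an unadjusted p under 0.05 and a median of -0.072, and the smallest p was that of Ndufaf5, at -0.23 (SE 0.12, adjusted p = 0.561). Of 32 tested genes of mitochondrial transcription, RNA processing, polyadenylation and decay 0 were called, with 2 at an unadjusted p under 0.05 and a median of 0.037. Grsf1, an RNA-binding protein of mitochondrial RNA granules, had the smallest p, at 0.29 (SE 0.11, adjusted p = 0.263). DESeq2 and limma-voom also called 0 of the assembly and RNA genes together. Polrmt, the mitochondrial RNA polymerase, is named after its values were seen: its log2 fold change was -0.36 (SE 0.23, adjusted p = 0.711), and it was called lower when the first principal component of the nuclear genes was added as a covariate.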

How the data were processed

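The authors deposited estimated counts per transcript for each embryo. Per the labels' protocols, libraries were made by SmartSeq2 with oligo dT priming. The submitters' processing notes list kallisto 0.46.1, Trim Galore 0.6.2, bcl2fastq, and DESeq2 1.32.0 in R 3.5.1, with no role or order, and no source used here gives the transcript index. Counts carry no molecular identifiers, so a multiply copied molecule counts more than once. The estimated counts were summed per gene and rounded to whole numbers, and a median of 0.567% of counts, on transcripts without a gene, was left out. Genes were filtered with filterByExpr by arm, scaled with TMM, and tested with edgeR 4.0.16 (quasi-likelihood test, R 4.3.3) with experiment as a factor, and p-values were adjusted by Benjamini-Hochberg over all features tested. Fits by experiment used the 6 group means in 1 model. Shares were compared by 100000 permutations of arm labels within experiments, two-sided (smallest possible p 1e-05). The deposited batch-adjusted values, a score whose method the authors do not state, were used only with limma 3.58.1 as an alternative. The authors' deposited tables of log2 fold changes and p-values came from DESeq2. DESeq2 1.42.0 was a further alternative. Likeness was Pearson's r of log2 CPM (prior count 2) after subtraction of group means, and the 3 most like genes per member were named. From each nuclear list the gene with the smallest p was named where none was called. The members and lists were chosen with earlier results of these data known. The statistics were tested on simulated data, where the simulated counts had the same dispersion for all genes and no difference between experiments. 1 control embryo that the series' design counts was not analysed here.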

Additional observations from a re-analysis of the deposited data

Results flagged for a closer look

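Control embryo 2 of experiment 2 had 19.6% of its mt- counts on mt-Nd1, and the next embryo of its group of 7 had 13.6%. The gap made up 0.725 of the range of the group, above the 95% critical value of 0.568 for 7 samples. In all, 15 groups and measures were examined in this way, and chance gives about 1 such value in 20. The value was given because this embryo lay far from the others of its group, and the comparison of mt-Nd1 shares without it stands beside the result above. No explanation was tested.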

How the results depend on the processing

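The number of members called between arms was 4, and moved by more than 1.5 times in 3 of 15 alternatives. It was 0 without experiment 3, where mt-Nd4l had a log2 fold change of 0.19 (edgeR adjusted p = 0.729) and mt-Nd5 one of 0.15 (0.804). With the embryo number as a replicate block it was 1 (mt-Nd2; mt-Nd3, mt-Nd4l and mt-Nd5 had adjusted p = 0.166, 0.303 and 0.505), and in the same embryos without the block it was 2 (mt-Nd2 and mt-Nd3; mt-Nd4l and mt-Nd5 had 0.134 and 0.253), an alternative chosen after seeing the data. The embryo numbers come from the sample titles, which name no pairing. Deviations of same-numbered embryos had a median r of 0.0532 over 46 pairs, 16 of them over 0.1. Of 92 embryos, 10 correlated best with their own number. How many would do so by chance was not computed, so a pairing was not excluded. In the other 12 alternatives 3 to 5 members were called, always higher. Over the 15, mt-Nd2 passed in 14, mt-Nd3 and mt-Nd4l in 12 each, mt-Nd5 in 7, mt-Nd1 in 2, and mt-Nd4 and mt-Nd6 in 0. With the first principal component as a covariate, mt-Nd1 passed (0.29, adjusted p = 0.0486) and 1 of the mitochondrial RNA and assembly genes, Polrmt, was called in place of 0. The cause of these changes was not tested. For the block alone, the same smaller set of embryos was also fitted without it, as given above. The fits without an experiment had no such counterpart. Over all features the call count was 151, and it was 227 with DESeq2, 370 with the principal component, 966 without the low-count filter, 23 and 42 without experiments 1 and 3, 19 with the replicate block and 66 without it in the same embryos. Other denominators of the shares, the coding transcripts alone or all mt- counts without ribosomal RNAs, were not run, since only the 13 coding mt- transcripts are counted here and both equal the reported value. The leave-one-out fits without knockdown embryo 5 of experiment 3 and control embryo 2 of experiment 2 were chosen after seeing the data and called 3 and 4 members. Member counts were at least 447 in every embryo. In experiment 2, with 7 controls, the SE of a member's fold change was 0.17 to 0.22.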
